A study of Mus musculus with 9 samples.

Results

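Nuclear hormone receptors are transcription factors, most of which are switched by a small fat-soluble ligand such as a steroid, a retinoid, a thyroid hormone, a vitamin or a fatty acid. The 47 genes described here are the members of this family whose symbols matched 1 of 25611 rows of a table of read counts per gene, taking the first row of each symbol. Hand-picked mouse pancreatic islets, the clusters of hormone-secreting cells in the pancreas, were used for RNA sequencing and, in other mice, to map the binding of Glis3, a zinc finger transcription factor, by chromatin immunoprecipitation (ChIP-seq). The RNA groups were 3 mice labelled KO, of genotype Pdx1-Cre;Glis3fl/fl, and 4 mice labelled WT, of genotype Glis3fl/fl, all 4 weeks old. Both groups thus carried the floxed Glis3 allele. The labelled KO group alone carried Cre under the Pdx1 promoter, which is active in the progenitors of the pancreas and later mainly in beta cells. No group carried Cre alone, so that effects of the driver and of the Glis3 deletion cannot be told apart. ChIP-seq used a GFP antibody on islets of Glis3-eGFP mice, 8 weeks old and with 1 library, so that peaks have no replicate.

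A nuclear receptor typically carries a DNA-binding domain and a ligand-binding domain, and exchanges corepressors for coactivators when its ligand binds. Steroid receptors usually bind DNA as homodimers, whereas retinoic acid, thyroid hormone, vitamin D, fatty acid and sterol receptors bind as heterodimers with the retinoid X receptors. In islets the family is known for tying insulin secretion and beta cell survival to steroid hormones, retinoids, vitamin D, lipids and the circadian clock.

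The libraries held 12099365 to 22578480 counts in the labelled KO group and 18297697 to 48054551 counts in WT. Levels are given as counts per 1e6 counts of the library, its size scaled with TMM factors (CPM). Glis3, the targeted gene, had 52.0, 52.7 and 57.8 CPM in labelled KO libraries, against 39.5, 46.8, 31.2 and 33.5 CPM in WT libraries. The labelled KO values lay above all WT values (log2 fold change 0.52 ± 0.14 SE, edgeR adjusted p = 0.0257). With a block for the replicate number the adjusted p was 0.0505, and it was 0.0945, 0.085, 0.0501 and 0.117 without WT 3, WT 4, KO 1 and KO 3. These reads are counted over all of Glis3 and cannot show the loss of a part of it, so the label is not checked by this value and the group is called labelled KO throughout. Xist reads separated the libraries across the groups, with 3530 and 5430 counts in KO 1 and KO 2 and 7752 and 12409 counts in WT 1 and WT 2, against 5 to 7 counts in KO 3, WT 3 and WT 4. Marker lists of other cells also differed. Acinar markers summed to 2950 to 15900 CPM in labelled KO and 895 to 5390 CPM in WT, with 0 of 19 tested markers called by edgeR, and duct markers to 1280 to 1550 CPM in labelled KO and 623 to 670 CPM in WT, with 2 of 9 called higher (Spp1 and Epcam). The duct keratin gene Krt19 was not called, with 0 CPM in KO 2. Beta cell markers summed to 189000 to 300000 CPM in labelled KO and 330000 to 551000 CPM in WT, with 6 of 10 called lower and 1 higher. Endothelial markers summed to 808 to 1040 CPM in labelled KO and 723 to 816 CPM in WT (0 of 10 called), stellate and fibroblast markers to 453 to 586 CPM in labelled KO and 309 to 402 CPM in WT (2 of 10 higher), and macrophage and leukocyte markers to 304 to 385 CPM in labelled KO and 210 to 298 CPM in WT (1 of 9 higher). Of the alpha cell markers 4 of 10 were called higher and 3 lower, and of the delta cell markers 3 of 10 higher. Beside each of these marker counts, 8.73% of all tested genes were called higher and 5.25% lower. The part of any of these in the receptor values below was not tested. In bulk islets, fewer cells of a type and less RNA per cell cannot be told apart.

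Of the 47 receptor genes, 34 had enough counts to be tested, 11 had few counts and 2 (Nr2e1 and Nr0b1) had none in any library. At an adjusted p under 0.05 in edgeR's quasi-likelihood test, 4 receptor genes were higher in labelled KO islets (Esr1, Esrrg, Ppara and Nr4a2) and 4 were lower (Vdr, Rara, Pparg and Rora). These 8 are 23.5% of the 34 tested, beside 14.0% of all 14529 tested genes. In each direction the share was 11.8%, beside 8.73% of all tested genes higher and 5.25% lower. The median log2 fold change was -0.23 over the 34 receptors and 0.01 over all tested genes. In 15 of the 34 (44.1%, beside 26.6% of all tested genes) the groups did not overlap, 6 with labelled KO above WT and 9 with labelled KO below WT. The summed level of all receptor genes was 601 to 689 CPM in labelled KO libraries and 758 to 994 CPM in WT libraries. Such a sum rests mostly on a few genes. Vdr, Nr1d1 and Nr1d2 had means of 60.8, 34.1 and 27.6 CPM in labelled KO, against 153, 86.3 and 59 CPM in WT. Of these only Vdr was called. The mean of log2(CPM + 0.5) over all receptor genes overlapped, at 2.27 to 2.3 in labelled KO and 2.27 to 2.49 in WT. The sum thus does not show a fall across the family.

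**Figure D1:**
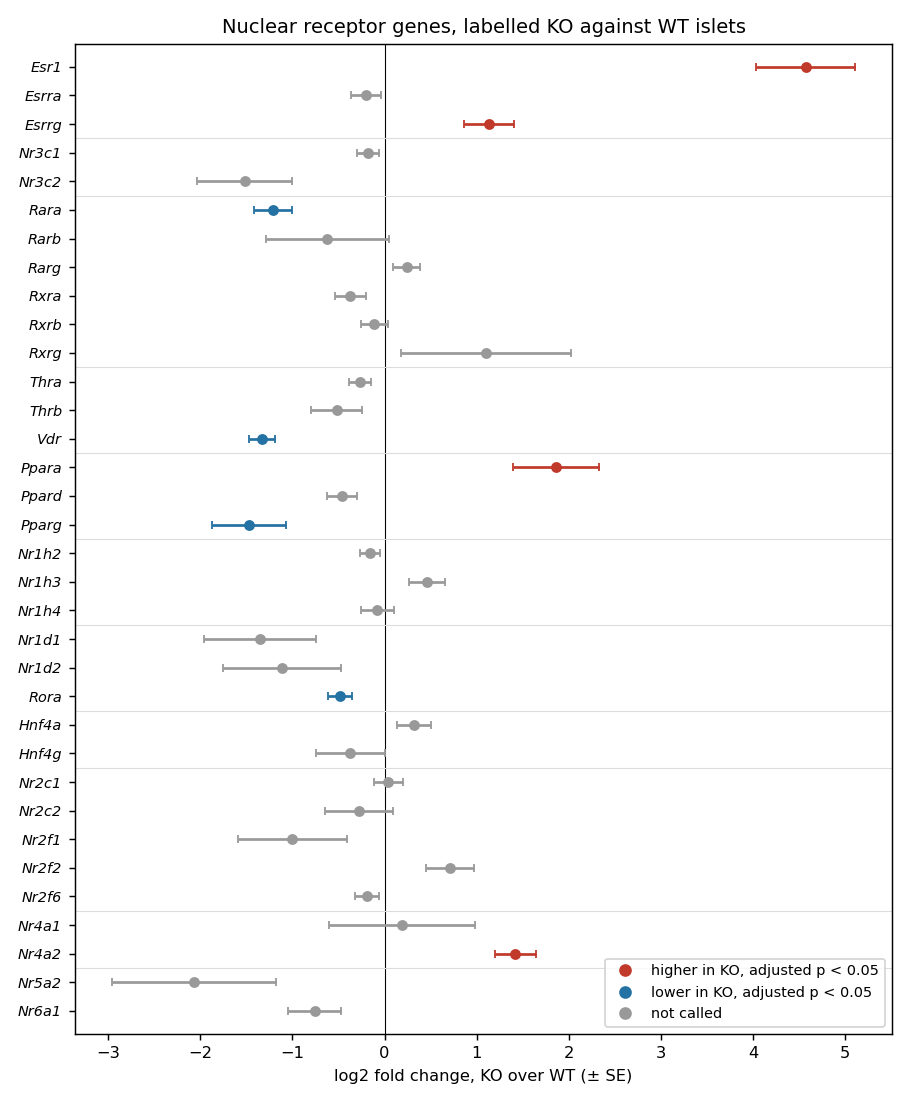
Log2 fold change of labelled KO over WT for the 34 tested nuclear receptor genes, ordered by family, with bars of ± 1 SE. Red points are the 4 genes higher and blue points the 4 genes lower at an edgeR adjusted p under 0.05; Esr1 lies farthest to the right, at 4.57.

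Glis3 peaks were common at these genes, as they were at expressed genes in general. A peak midpoint lay within 1 kb of the 5′ end of the gene in 27 of the 47 receptors (57.4%). Among the 34 tested it was 25 (73.5%), beside 71.2% of all tested genes, so that the share was near the background. Within 10 kb it was 29 of 34 (85.3%), beside 80.5%, and within 50 kb 31 of 34 (91.2%), beside 91.1%. Peaks inside the gene were found in 28 of the 34 (82.4%), beside 61.2% of all tested genes, with a median gene span of 60 kb in the tested receptors and 21.7 kb in all tested genes. Counting the gene and 10 kb on either side, it was 32 of 34 (94.1%), beside 85.8%. Of the 8 called receptors 7 had a peak within 1 kb, all except Esr1. Of the 26 not called 18 had one. The peaks were 200 bp intervals without a score, so they could not be ranked by strength.

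**Figure D2:**
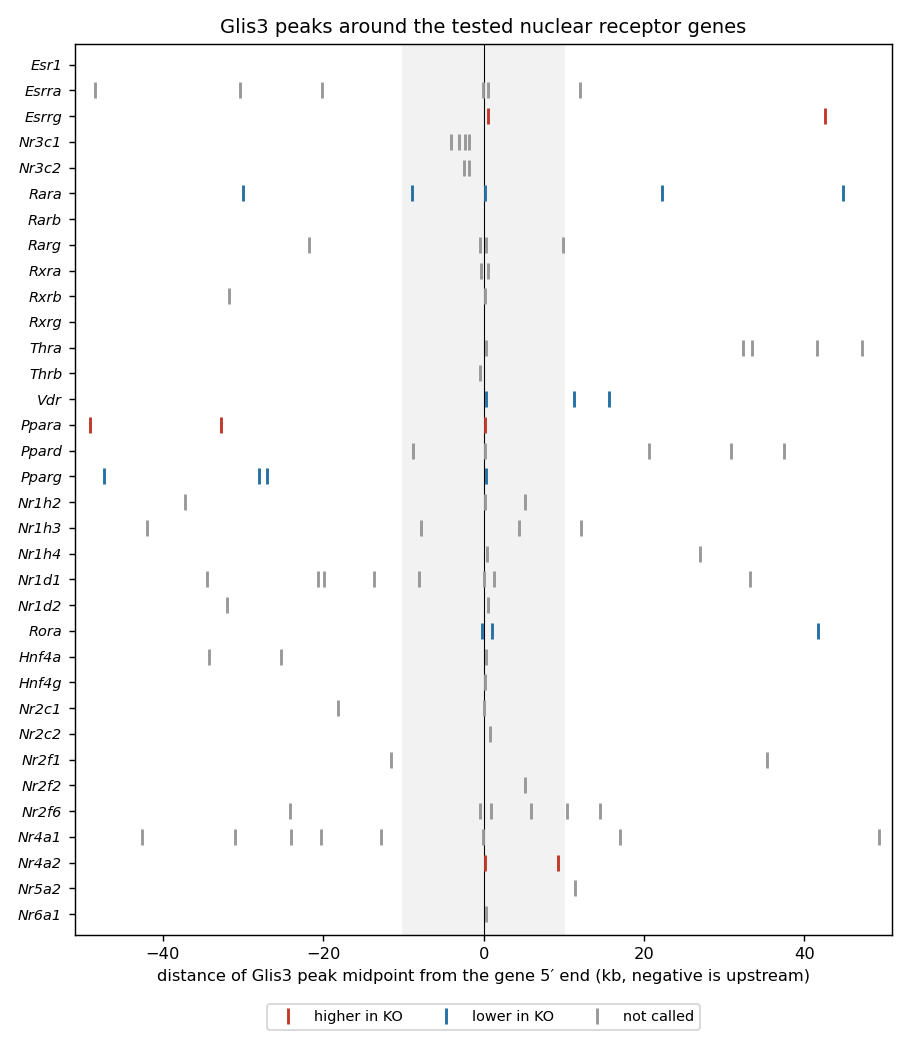
Position of each Glis3 peak midpoint, in kb from the 5′ end of the gene (negative is upstream), for the 34 tested nuclear receptor genes. The grey band marks 10 kb on either side. Red and blue ticks mark genes higher and lower in labelled KO islets; 7 of these 8 genes have a tick within 1 kb of the 5′ end, and Esr1 has none within 50 kb.

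RefSeq promoter windows on GRCm38.p6 (the assembly also called mm10), each with 250 bases before and 50 bases after a transcript start, were used for 43 of the 47 receptors, 64 windows in all. A Glis3 peak overlapped 17 of them (26.6%), beside 20.8% of all 32851 windows. Receptor windows on chr18, where Nr3c1 lies, were left out, a limit not set on all windows. The letters TGGGGGGT, the core of the G-rich element that GLIS proteins are known to bind, were searched on both strands. They occurred in 3 windows (4.69%), of Esrrg, Nr2f1 and Rxrb, beside 1.53% of all windows, and the shorter TGGGGGG, which lies within the longer word, occurred in 14 (21.9%), beside 8.47%. Only the Rxrb window held both TGGGGGGT and a peak. A match describes letters and not a binding site. For the called receptors with a peak at a start, windows are printed below with the gene concerned, in order to show how far the peak reaches into the promoter.

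Among the estrogen receptor genes, Esr1 and Esrrg rose. Esr1 encodes estrogen receptor alpha, the receptor through which estradiol is known to protect beta cells in rodents. It lies on chr10:4611989-5005633, plus strand (mm10). Its level was 5.57, 9.85 and 7.80 CPM in labelled KO libraries, against 0.627, 0.389, 0.0609 and 0.0957 CPM in WT libraries. Every labelled KO library was above every WT library, and the WT libraries were low throughout. The mean was 7.74 ± 2.14 CPM in labelled KO (SD, n = 3) and 0.293 ± 0.267 CPM in WT (SD, n = 4), a 23.7-fold difference (log2 fold change 4.57 ± 0.54 SE, edgeR adjusted p = 6.42e-05). It was called in all 20 alternatives, with log2 fold changes of 3.92 to 5.09. WT 1 and WT 2, the libraries with Xist reads, had the higher WT values, whereas KO 3, without them, lay between KO 1 and KO 2. Esr1 passed the filter on low counts (0.443 CPM) in all 3 labelled KO libraries and in 1 WT library, so mainly through the group where it is high. It had 18, 20, 1 and 2 counts in WT 1 to 4. Those of WT 3 and WT 4 were under the floor of 3 counts, so the size of the fold difference is uncertain. Its nearest Glis3 peaks lay inside the gene, 100.64 and 347.04 kb from the 5′ end, at chr10:4712534-4712733 and chr10:4958927-4959126.

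Esrrg encodes the estrogen-related receptor gamma, an orphan receptor known for driving mitochondrial oxidative genes and, in mouse beta cells, their postnatal maturation. It lies on chr1:187609006-188214884, plus strand. It had 13.8, 21.2 and 12.2 CPM in labelled KO libraries, against 10.2, 6.89, 4.57 and 7.08 CPM in WT libraries. The groups did not overlap, with KO 2 the highest library and WT 1 the highest in WT. The mean was 15.7 ± 4.8 CPM in labelled KO (SD, n = 3) and 7.18 ± 2.30 CPM in WT (SD, n = 4), with a log2 fold change of 1.13 ± 0.27 SE (edgeR adjusted p = 0.0117). Without KO 2 the log2 fold change was 0.85 (adjusted p = 0.0639), with the acinar marker mean as a covariate 0.96 (0.0907), and in the 4 libraries with Xist reads 1.03 (0.103). Esrra, for the related receptor alpha, had a log2 fold change of -0.20 ± 0.16 SE and was not called (edgeR adjusted p = 0.446).

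Esrrg held 5 Glis3 peaks inside the gene, the nearest 0.50 kb from the 5′ end. Windows of 2 internal Esrrg starts near 42.61 kb are shown because a peak covered most of the first, and the second held the G-rich letters without a peak. Capitals mark the 200 bases under the peak in the window chr1:187651508-187651807 and the letters TGGGGGGT in the window chr1:187651991-187652290, both on the plus strand of GRCm38.p6 and from RefSeq.
Esrrg start under a peak: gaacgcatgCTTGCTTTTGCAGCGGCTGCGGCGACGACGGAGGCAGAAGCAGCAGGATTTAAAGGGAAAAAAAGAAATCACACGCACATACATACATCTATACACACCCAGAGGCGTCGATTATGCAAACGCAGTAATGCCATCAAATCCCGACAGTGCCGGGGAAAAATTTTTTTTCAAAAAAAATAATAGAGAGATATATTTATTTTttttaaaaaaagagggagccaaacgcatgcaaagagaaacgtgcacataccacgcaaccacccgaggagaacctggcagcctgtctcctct
Esrrg start with TGGGGGGT: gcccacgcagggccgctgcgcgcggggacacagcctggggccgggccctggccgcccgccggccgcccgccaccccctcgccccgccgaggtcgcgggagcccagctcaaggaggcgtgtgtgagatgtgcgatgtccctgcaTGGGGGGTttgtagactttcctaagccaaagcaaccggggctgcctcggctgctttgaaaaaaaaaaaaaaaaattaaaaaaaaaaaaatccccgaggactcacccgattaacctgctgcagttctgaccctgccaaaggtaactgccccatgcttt

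The other estrogen receptor genes were scarce. Esr2, for estrogen receptor beta, had 2 counts over the labelled KO libraries and 0 over the WT libraries, and Esrrb had 2 and 13 counts. Of 7 tested genes listed as estrogen receptor targets, 3 were higher in labelled KO and 1 lower, with a median log2 fold change of 0.94. Beside this list and each list below, 8.73% of all tested genes were called higher and 5.25% lower. Ctsd, for the lysosomal protease cathepsin D, had 593, 452 and 469 CPM in labelled KO, against 271, 262, 251 and 269 CPM in WT (log2 fold change 0.94, edgeR adjusted p = 0.000209). Igfbp4, for a protein that binds insulin-like growth factors, and Cxcl12, for a chemokine, were higher by 1.13 and 1.06 on the log2 scale (adjusted p = 0.00356 and 0.00759). Prlr, the prolactin receptor of beta cells, was lower by a log2 fold change of -1.01 (adjusted p = 0.00567), with 73.9, 120 and 101 CPM in labelled KO, against 143, 169, 224 and 254 CPM in WT. Greb1 and Pgr, widely used estrogen-responsive genes, did not pass the filter on low counts.

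Among 10 tested genes listed as targets of the estrogen-related receptors, 1 rose and 2 fell, with a median log2 fold change of 0.01. Idh3a, for a subunit of a citric acid cycle enzyme, rose by 0.41 (edgeR adjusted p = 0.0343). Without WT 1, WT 2, WT 3, KO 1 and KO 3 its log2 fold change was 0.36, 0.40, 0.39, 0.39 and 0.33, in the same direction, but the call was lost (adjusted p = 0.0861, 0.09, 0.0945, 0.0862 and 0.144). Cox6a2, for a cytochrome oxidase subunit, had 15.7, 16.2 and 24.8 CPM in labelled KO, against 67.0, 52.8, 126 and 148 CPM in WT (log2 fold change -2.37, adjusted p = 0.014, and 0.0713 and 0.0793 without KO 1 and KO 2). Pdk4, for a kinase that restrains pyruvate oxidation, fell by 1.08 on the log2 scale (adjusted p = 0.000718). Pdk4 is on the list of peroxisome proliferator-activated receptor targets as well.

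**Figure D3:**
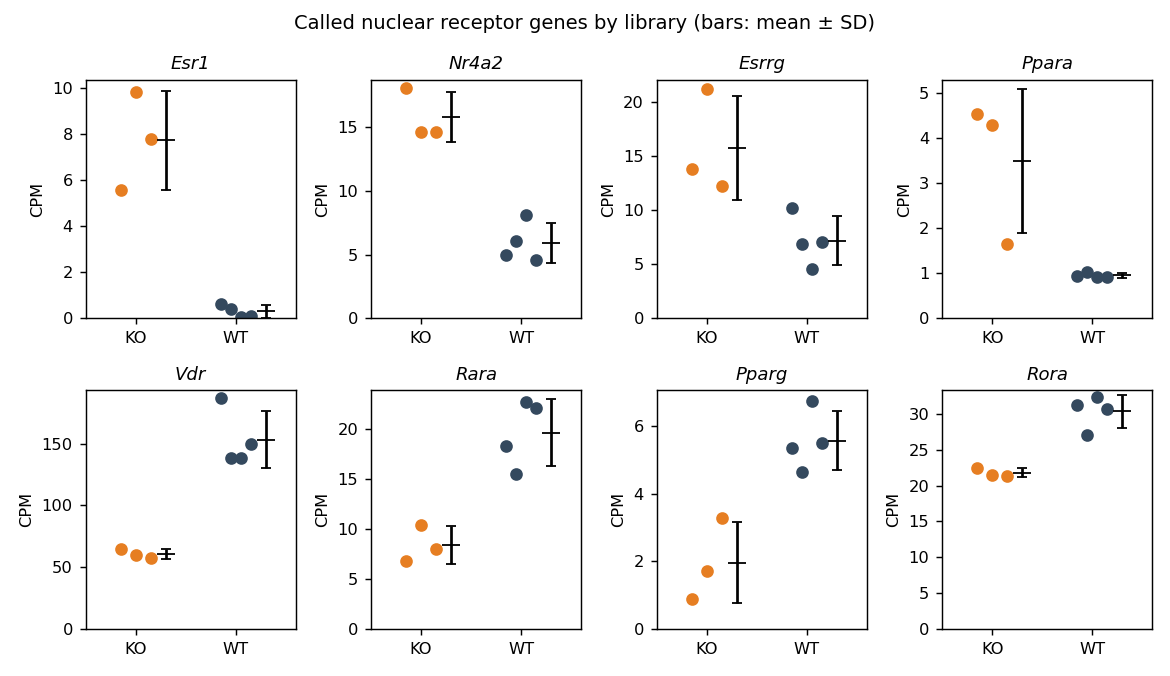
Level in CPM of the 8 called nuclear receptor genes in each library, with labelled KO libraries in orange at the left and WT libraries in dark blue at the right, and bars giving mean ± SD. The upper row holds the genes higher and the lower row the genes lower in labelled KO islets. In none of the 8 genes do the groups overlap, and for Esr1 all WT libraries lie below 1 CPM.

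The receptors for the other steroids were not called. Nr3c1, the glucocorticoid receptor, had 53.7, 50.8 and 50.6 CPM in labelled KO, against 66.4, 59.5, 57.8 and 50.8 CPM in WT (log2 fold change -0.18 ± 0.12 SE, edgeR adjusted p = 0.344). Nr3c2, the mineralocorticoid receptor, had 0.668, 1.47 and 0.576 CPM in labelled KO, against 3.80, 2.37, 1.64 and 2.68 CPM in WT. All labelled KO libraries were below all WT libraries, but the adjusted p was 0.0682 (log2 fold change -1.52 ± 0.52 SE). It was 0.0265 without KO 2, 0.0212 in DESeq2 and 0.0491 with Xist reads as a covariate. The progesterone receptor gene Pgr had 6 counts over labelled KO libraries, all in KO 3, and 28 counts over WT libraries.

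Of 10 tested glucocorticoid targets and enzymes, 2 rose and 1 fell. Tat, for the liver enzyme tyrosine aminotransferase, was higher by 0.74 (edgeR adjusted p = 0.00206), with 36.8, 37.9 and 35.1 CPM in labelled KO, against 20.1, 19.3, 23.7 and 24.6 CPM in WT. Cdkn1a, for the cell cycle inhibitor p21, was higher by 0.71 (adjusted p = 0.00393). Fkbp5, for a chaperone of the glucocorticoid receptor and a classic target of it, fell by 0.61 on the log2 scale (adjusted p = 0.0298), but the adjusted p was 0.0726, 0.0724, 0.11 and 0.0846 without WT 1, WT 2, KO 2 and KO 3, and 0.192 with library size alone. The called genes of the list thus moved in both directions.

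In the retinoid receptors, Rara fell and the other 5 genes were not called. Rara encodes the retinoic acid receptor alpha and lies on chr11:98937696-98974942, plus strand. It had 6.76, 10.4 and 8.02 CPM in labelled KO, against 18.3, 15.5, 22.7 and 22.2 CPM in WT. The highest labelled KO library was below the lowest WT library. The mean was 8.41 ± 1.88 CPM in labelled KO (SD, n = 3) and 19.7 ± 3.39 CPM in WT (SD, n = 4), with a log2 fold change of -1.21 ± 0.21 SE (edgeR adjusted p = 0.00127). Among 20 alternatives the call was lost in 1, the 4 libraries with Xist reads (-0.98, adjusted p = 0.0889).

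A Glis3 peak lay 0.12 kb inside Rara, at chr11:98937718-98937917, and another 22.27 kb inside it. The RefSeq window of the Rara start at chr11:98937468-98937767, plus strand, is shown with the 50 bases under the first of these peaks in capitals, which puts the edge of the peak at the start of transcription.
Rara start: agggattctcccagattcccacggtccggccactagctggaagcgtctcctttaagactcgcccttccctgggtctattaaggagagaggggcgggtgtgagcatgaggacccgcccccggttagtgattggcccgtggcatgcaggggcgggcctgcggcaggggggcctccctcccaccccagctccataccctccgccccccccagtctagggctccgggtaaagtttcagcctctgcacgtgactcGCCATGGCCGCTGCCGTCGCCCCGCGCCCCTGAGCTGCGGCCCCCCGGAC

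Rarg, the gamma form, had 36.3, 47.8 and 31.3 CPM in labelled KO, against 31.0, 32.1, 31.4 and 35.5 CPM in WT, and the groups overlapped (log2 fold change 0.24 ± 0.15 SE, edgeR adjusted p = 0.308). Rarb, the beta form, had a log2 fold change of -0.62 ± 0.67 SE (adjusted p = 0.6). The retinoid X receptors, the shared partners of many of the receptors below, had log2 fold changes of -0.37 ± 0.17 SE for Rxra (adjusted p = 0.168), -0.11 ± 0.15 SE for Rxrb (0.688) and 1.10 ± 0.92 SE for Rxrg (0.479). Rxra had 21.2, 19.6 and 25.2 CPM in labelled KO, against 34.0, 28.1, 21.4 and 30.4 CPM in WT. Of 8 tested retinoic acid targets and enzymes, 2 rose and 0 fell, with a median log2 fold change of 0.71. Aldh1a3, which makes retinoic acid from retinal and is known as a marker of stressed beta cells, had 24.5, 38.0 and 9.66 CPM in labelled KO, against 1.57, 1.13, 0.670 and 0.957 CPM in WT (log2 fold change 4.43 ± 0.43 SE, edgeR adjusted p = 2.74e-05).

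The vitamin D receptor gene Vdr fell, with the smallest adjusted p among the receptors. It lies on chr15:97854427-97908296, minus strand, and its product mediates the actions of calcitriol, also on beta cells. It had 65.0, 60.1 and 57.2 CPM in labelled KO, against 187, 138, 138 and 149 CPM in WT. The labelled KO libraries lay close together and well below every WT library. The mean was 60.8 ± 3.92 CPM in labelled KO (SD, n = 3) and 153 ± 23.1 CPM in WT (SD, n = 4), with a log2 fold change of -1.33 ± 0.14 SE (edgeR adjusted p = 1.9e-05). It was called in all 20 alternatives, with log2 fold changes of -1.40 to -1.16. Vdr held 3 Glis3 peaks, 0.26, 11.22 and 15.67 kb from the 5′ end. Of its 3 tested targets and enzymes none was called by edgeR, and Cyp24a1, the enzyme that degrades calcitriol and a sensitive target of the receptor, was not tested for lack of counts. The median log2 fold change of those 3 genes was 0.64.

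The thyroid hormone receptors Thra and Thrb were not called. Thra had 38.6, 38.5 and 42.5 CPM in labelled KO, against 53.9, 44.9, 50.4 and 42.7 CPM in WT, which did not overlap (log2 fold change -0.27 ± 0.12 SE, edgeR adjusted p = 0.167). The end of Thra overlaps Nr1d1 on the opposite strand, and the sources used here do not give the strand option of the counting, so reads of these genes may not be separate. Thrb had 3.79, 4.02 and 7.31 CPM in labelled KO, against 6.72, 6.87, 7.55 and 7.99 CPM in WT, with KO 3 inside the WT range (-0.52 ± 0.28 SE, adjusted p = 0.243). Without KO 3 its log2 fold change was -0.92 (adjusted p = 0.0473). Of 8 tested thyroid hormone targets and enzymes, 1 rose and 2 fell. Me1, for malic enzyme, rose by 0.70 (edgeR adjusted p = 0.0118). Dio1, the deiodinase that converts thyroxine, fell by 0.77 on the log2 scale (adjusted p = 0.00345), with 67.8, 43.9 and 61.1 CPM in labelled KO, against 102, 84.3, 103 and 103 CPM in WT. Slc16a10, an amino acid and thyroid hormone transporter, fell by 0.47 (adjusted p = 0.0189, but 0.0657 without KO 2 and 0.208 with library size alone).

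Among the peroxisome proliferator-activated receptors (PPARs), sensors of fatty acids, Ppara rose, Pparg fell and Ppard was not called. Ppara, which drives fatty acid oxidation, lies on chr15:85735564-85806851, plus strand. It had 4.53, 4.28 and 1.64 CPM in labelled KO, against 0.940, 1.03, 0.913 and 0.909 CPM in WT. All labelled KO libraries were above WT, but KO 3 was much closer to WT than KO 1 and KO 2. The mean was 3.48 ± 1.6 CPM in labelled KO (SD, n = 3) and 0.948 ± 0.0566 CPM in WT (SD, n = 4), with a log2 fold change of 1.86 ± 0.47 SE (edgeR adjusted p = 0.0162). With the replicate block it was 1.75 (adjusted p = 0.0698). The adjusted p was 0.0531 without KO 1, 0.0608 without KO 2, 0.0803 with the acinar marker covariate and 0.0603 in the 4 libraries with Xist reads.

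Pparg, the lipid-storage receptor that thiazolidinedione drugs activate, lies on chr6:115360951-115490401, plus strand. It had 0.891, 1.73 and 3.28 CPM in labelled KO, against 5.36, 4.65, 6.76 and 5.50 CPM in WT. The groups did not overlap, with KO 3 nearest to WT. The mean was 1.97 ± 1.21 CPM in labelled KO (SD, n = 3) and 5.57 ± 0.877 CPM in WT (SD, n = 4), with a log2 fold change of -1.47 ± 0.40 SE (edgeR adjusted p = 0.0249). The adjusted p was 0.0704, 0.052, 0.0544 and 0.0642 without WT 3, WT 4, KO 1 and KO 2, 0.0971 with the acinar marker covariate and 0.0784 in the 4 libraries with Xist reads.

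Each of these genes had a Glis3 peak at its start, 0.17 kb from the 5′ end in Ppara and 0.28 kb in Pparg. Their RefSeq windows, chr15:85735526-85735825 and chr6:115360894-115361193 on the plus strand, are shown together because their levels moved in opposite directions. Capitals mark the bases under the peak, 195 in Ppara and 57 in Pparg.
Ppara start: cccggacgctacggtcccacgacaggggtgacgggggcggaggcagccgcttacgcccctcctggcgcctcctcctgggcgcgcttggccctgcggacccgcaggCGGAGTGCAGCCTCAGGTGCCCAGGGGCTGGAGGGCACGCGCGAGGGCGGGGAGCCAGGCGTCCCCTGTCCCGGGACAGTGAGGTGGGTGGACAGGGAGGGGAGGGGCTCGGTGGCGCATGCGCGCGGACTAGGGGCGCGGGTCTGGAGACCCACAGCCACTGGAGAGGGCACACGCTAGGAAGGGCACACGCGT
Pparg start: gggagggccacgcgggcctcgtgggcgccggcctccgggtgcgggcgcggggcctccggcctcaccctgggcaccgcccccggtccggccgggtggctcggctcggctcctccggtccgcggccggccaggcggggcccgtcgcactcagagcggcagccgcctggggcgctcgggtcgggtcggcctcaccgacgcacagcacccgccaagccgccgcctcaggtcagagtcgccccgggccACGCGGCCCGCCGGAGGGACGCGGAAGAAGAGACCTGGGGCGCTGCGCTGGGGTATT

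Ppard, the delta form, had 29.4, 34.7 and 30.8 CPM in labelled KO, against 34.9, 36.0, 49.98 and 53.8 CPM in WT. The groups were separate by a narrow margin between KO 2 and WT 1 (log2 fold change -0.46 ± 0.16 SE, edgeR adjusted p = 0.0819, and 0.0421 without WT 1). Of 18 tested targets of these receptors, 1 rose and 2 fell, with a median log2 fold change of 0.02. Lpl, for lipoprotein lipase, had 134, 141 and 152 CPM in labelled KO, against 460, 390, 542 and 581 CPM in WT (-1.79 ± 0.15 SE, edgeR adjusted p = 4.04e-06). Pdk4 had 11.7, 14.7 and 16.1 CPM in labelled KO, against 27.8, 28.1, 27.3 and 37.4 CPM in WT. Ucp2, for a mitochondrial carrier of the inner membrane, rose by 0.58 (adjusted p = 0.0109).

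No sterol or bile acid receptor was called. Nr1h2, for the oxysterol receptor LXR beta, had 52.8, 52.9 and 49.2 CPM in labelled KO, against 53.1, 55.1, 60.2 and 62.4 CPM in WT (log2 fold change -0.16 ± 0.11 SE, edgeR adjusted p = 0.382). Nr1h3, for LXR alpha, had 10.7, 11.4 and 11.2 CPM in labelled KO, against 7.28, 6.57, 8.64 and 9.86 CPM in WT (0.46 ± 0.20 SE, adjusted p = 0.156). In both genes the groups were just separate. Nr1h4, for the bile acid receptor FXR, had 14.7, 11.5 and 12.4 CPM in labelled KO, against 15.01, 15.4, 12.9 and 11.0 CPM in WT (-0.08 ± 0.18 SE, adjusted p = 0.826). Of 8 tested LXR and FXR targets, 2 fell and 0 rose, with a median of -0.45. Srebf1, for the regulator of fatty acid synthesis SREBP-1, had 61.3, 67.7 and 48.0 CPM in labelled KO, against 102, 122, 107 and 102 CPM in WT (-0.87, edgeR adjusted p = 0.000641). Scd2, for a fatty acid desaturase, fell by 0.64 on the log2 scale (adjusted p = 0.00588, and 0.066 with library size alone).

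The xenobiotic receptor gene Nr1i2, for the pregnane X receptor PXR, had 0 counts in each labelled KO library, against 12, 18, 13 and 4 counts in WT 1 to 4. Set against a floor of 3 counts over the labelled KO group, this is 7.9-fold lower. The ratio of labelled KO to WT had a 95% counting interval of 0 to 0.162, which covers counting error only. Nr1i2 did not pass the filter on low counts. In a fit with no filter its edgeR adjusted p was 0.0423, and the other 10 untested receptors with counts were not called there (adjusted p = 0.179 to 0.69). The related gene Nr1i3, for the receptor CAR, had 38 counts over labelled KO libraries and 42 over WT libraries. Nr1h5 had 5 counts, all in KO 2, and 0 in WT.

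Among the receptors of the circadian clock, Rora fell and the REV-ERB genes were not called. RORs activate and REV-ERBs repress clock genes such as Arntl (Bmal1) through a shared DNA element. Rora lies on chr9:68653786-69388246, plus strand, and had 22.5, 21.4 and 21.4 CPM in labelled KO, against 31.3, 27.0, 32.4 and 30.7 CPM in WT. The labelled KO libraries were nearly equal and all below WT. The mean was 21.8 ± 0.630 CPM in labelled KO (SD, n = 3) and 30.3 ± 2.34 CPM in WT (SD, n = 4), with a log2 fold change of -0.48 ± 0.13 SE (edgeR adjusted p = 0.0253). With the replicate block it was -0.47 (adjusted p = 0.0633). Scaled by library size alone, which shifted the median of all tested genes to 0.18, it was -0.30 (0.307). The adjusted p was 0.0639, 0.0619, 0.0561 and 0.053 without WT 1, WT 3, KO 2 and KO 3, 0.125 with the acinar marker covariate and 0.202 in the 4 libraries with Xist reads.

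Rora held 9 Glis3 peaks inside the gene, the highest number among the receptors, in a long gene, and another peak 0.14 kb upstream of its 5′ end. That upstream peak, chr9:68653543-68653742, lay entirely within the RefSeq promoter window chr9:68653536-68653835 on the plus strand, which is shown with its 200 bases in capitals.
Rora start: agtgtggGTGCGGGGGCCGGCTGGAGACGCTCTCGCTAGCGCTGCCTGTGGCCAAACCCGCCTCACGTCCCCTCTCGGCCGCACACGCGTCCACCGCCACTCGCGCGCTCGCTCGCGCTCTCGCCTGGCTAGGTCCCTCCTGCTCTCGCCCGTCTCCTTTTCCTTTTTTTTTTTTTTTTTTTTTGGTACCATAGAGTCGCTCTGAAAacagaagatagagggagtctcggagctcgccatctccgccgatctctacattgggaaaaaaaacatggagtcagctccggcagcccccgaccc

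Nr1d1, for REV-ERB alpha, had 57.3, 27.0 and 18.1 CPM in labelled KO, against 142, 103, 57.7 and 42.8 CPM in WT. Nr1d2, for REV-ERB beta, had 38.1, 13.2 and 31.6 CPM in labelled KO, against 96.2, 79.8, 32.3 and 27.7 CPM in WT. In both genes WT 1 and WT 2 were high, WT 3 and WT 4 were low, and the groups overlapped. The log2 fold change of Nr1d1 was -1.35 ± 0.61 SE (edgeR adjusted p = 0.23), and -1.64 (adjusted p = 4.98e-06) with the replicate block, in which WT 4 has no partner. It was -1.46 (0.033) in limma-voom, -1.52 (0.00369) with Xist reads as a covariate and -1.57 (0.0396) in the 4 libraries with Xist reads. For Nr1d2 the log2 fold change was -1.11 ± 0.64 SE (adjusted p = 0.334), and the block gave an adjusted p of 0.342. Rorb, the beta ROR, was not tested, with 50 counts over labelled KO and 20 over WT libraries. On TMM-scaled library sizes this is a ratio of 4.96 (95% counting interval 2.90 to 8.80, which covers counting error only). With the spread between libraries, in the fit with no filter, Rorb was not called (edgeR adjusted p = 0.179).

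The split within WT was also seen in the clock list. Of its 15 genes, 9 were higher in both WT 1 and WT 2 than in WT 3 and WT 4, and 4 were lower in both. The share of all tested genes with such a split was not counted, so it cannot be called particular to clock genes. Dbp, a clock output gene, had 31.6, 13.3 and 14.9 CPM in labelled KO, against 95.1, 69.4, 17.4 and 15.03 CPM in WT. Arntl had 10.2, 9.50 and 12.4 CPM in labelled KO, against 5.54, 9.14, 23.7 and 20.8 CPM in WT. Xist reads divided the WT libraries in the same way, with 7752 and 12409 counts in WT 1 and WT 2 and 7 in each of WT 3 and WT 4. The labels give no time of collection, so within WT a difference in time and the difference in Xist cannot be told apart. In edgeR 1 of the 15 genes was called lower, Bhlhe41, a repressor of the clock, with 38.4, 22.8 and 25.6 CPM in labelled KO, against 70.7, 57.6, 48.6 and 44.3 CPM in WT (log2 fold change -0.94 ± 0.20 SE, adjusted p = 0.00567). None was called higher.

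**Figure D4:**
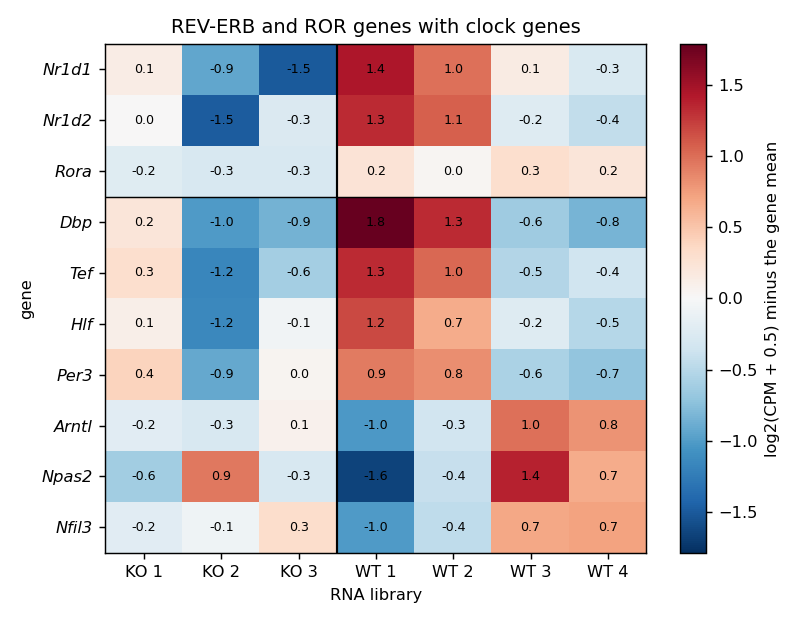
Level of Nr1d1, Nr1d2 and Rora (upper block) and of 7 clock genes (lower block) in each library, as log2(CPM + 0.5) minus the mean of the gene over all libraries, with red above and blue below that mean. The labelled KO libraries stand at the left and WT at the right. WT 1 and WT 2 are red for Nr1d1, Nr1d2, Dbp, Tef, Hlf and Per3 and blue for Arntl, Npas2 and Nfil3, with the opposite colours in WT 3 and WT 4 for all of these except Nr1d1 in WT 3, whereas Rora is blue in the labelled KO libraries and not in WT.

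The HNF4 receptors, regulators of liver, gut and beta cell genes, were not called. Hnf4a, mutated in a form of monogenic diabetes, had 39.0, 36.2 and 24.5 CPM in labelled KO, against 31.8, 28.5, 21.6 and 24.2 CPM in WT (log2 fold change 0.32 ± 0.18 SE, edgeR adjusted p = 0.27). Hnf4g had a log2 fold change of -0.37 ± 0.37 SE (adjusted p = 0.563). In the list of HNF4 network genes, 4 of 12 tested rose and 1 fell. Ttr, for the carrier of thyroxine and retinol transthyretin, had 5601, 5722 and 5259 CPM in labelled KO, against 1492, 1412, 1870 and 2287 CPM in WT (1.65 ± 0.16 SE, edgeR adjusted p = 1.29e-05). Apoa2, for an apolipoprotein, had 19.2, 18.6 and 19.0 CPM in labelled KO, against 3.73, 2.63, 4.63 and 4.45 CPM in WT (2.31, adjusted p = 9.96e-06). Apoa1 had 2.82, 5.57 and 5.27 CPM in labelled KO, against 0.662, 0.408, 0 and 0.431 CPM in WT (3.52, adjusted p = 0.00202). Pck1, for the key enzyme of glucose synthesis, had 0.743, 1.17 and 1.77 CPM in labelled KO, against 0, 0.0972, 0 and 0 CPM in WT. It passed the filter on low counts through the labelled KO libraries alone, so its place among the 4 is no support. In Ttr, Apoa2 and Apoa1 every labelled KO library was above every WT library. Apoa1 also passed the filter mainly through the labelled KO libraries. It had 0 CPM in 1 WT library, so the size of its fold difference is uncertain. Slc2a2, the glucose transporter GLUT2 of beta cells, had 64.2, 82.5 and 133 CPM in labelled KO, against 616, 535, 458 and 489 CPM in WT (-2.49 ± 0.23 SE, adjusted p = 8.36e-06).

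None of the COUP-TF and testicular receptor genes was called by edgeR. Nr2f2, for COUP-TFII, had 7.05, 11.4 and 7.44 CPM in labelled KO, against 5.68, 6.46, 5.05 and 3.88 CPM in WT, separate but not past the threshold (log2 fold change 0.71 ± 0.26 SE, edgeR adjusted p = 0.095). Nr2f1, for COUP-TFI, had -1.0 ± 0.59 SE (0.291), Nr2f6 -0.19 ± 0.13 SE (0.397), Nr2c1 0.04 ± 0.16 SE (0.903) and Nr2c2 -0.28 ± 0.37 SE (0.676), in log2 fold change and adjusted p. Nr2e3, a photoreceptor gene, had 0 counts over labelled KO and 9 over WT libraries, all in WT 2.

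Among the NR4A genes, which are orphan receptors induced within minutes to hours by stimuli, Nr4a2 rose. Nr4a2, for NURR1, known for its role in dopamine neurons, lies on chr2:57107226-57124003, minus strand. It had 18.0, 14.6 and 14.6 CPM in labelled KO, against 4.95, 6.03, 8.10 and 4.60 CPM in WT. The lowest labelled KO library was well above the highest WT library, WT 3. The mean was 15.8 ± 1.97 CPM in labelled KO (SD, n = 3) and 5.92 ± 1.58 CPM in WT (SD, n = 4), with a log2 fold change of 1.42 ± 0.22 SE (edgeR adjusted p = 0.000742). It was called in all 20 alternatives, with log2 fold changes of 1.30 to 1.59. Its Glis3 peaks lay inside the gene, 0.21 and 9.26 kb from the 5′ end.

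Nr4a1, for NUR77, had another pattern, with 23.7, 8.29 and 23.1 CPM in labelled KO, against 22.7, 29.6, 5.36 and 5.50 CPM in WT (log2 fold change 0.19 ± 0.79 SE, edgeR adjusted p = 0.91). KO 2, WT 3 and WT 4 were low and the other libraries high. The 9 tested immediate early genes listed with it were each higher in WT 1 and WT 2 than in WT 3 and WT 4, the division that Xist reads made too, and 0 of them were called. How many of all tested genes were divided in this way was not counted here either. Fos had 248, 33.8 and 19.0 CPM in labelled KO, against 123, 146, 12.4 and 8.81 CPM in WT. For Nr4a2, by contrast, WT 3 was the highest WT library. Nr4a3 had 12 counts over labelled KO and 71 over WT libraries, a ratio of 0.335 on the same scale (95% counting interval 0.166 to 0.623, counting error only), with most of the WT counts in WT 1 and WT 2. In the fit with no filter it was not called (edgeR adjusted p = 0.541).

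Of the remaining receptors, Nr5a2, for LRH-1, a regulator of acinar and liver genes, had 0, 0.216 and 0.310 CPM in labelled KO, against 0.940, 0.953, 0.852 and 0.479 CPM in WT. The groups did not overlap, but Nr5a2 passed the filter on low counts through the WT libraries alone (log2 fold change -2.07 ± 0.89 SE, edgeR adjusted p = 0.146). The acinar marker sums given above overlapped between the groups. The log2 fold change was above 0 in 18 of the 19 tested acinar markers, with a median of 1.3 and 0 called. The part of acinar cells in the Nr5a2 values was not tested. Nr6a1, for the germ cell nuclear factor, had 3.79, 4.41 and 8.10 CPM in labelled KO, against 11.2, 8.17, 7.001 and 10.7 CPM in WT (-0.76 ± 0.29 SE, adjusted p = 0.106). Without KO 3, which lay inside the WT range, it was -1.20 (0.0208). Nr5a1 had 2 counts in labelled KO and 0 in WT. Nr0b2, for SHP, a receptor without a DNA-binding domain that represses others, had 37 counts in labelled KO, 33 of them in KO 2, and 25 in WT.

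Of 19 tested co-regulators, with which these receptors work, 0 rose and 2 fell, beside 8.73% and 5.25% of all tested genes. The log2 fold change was below 0 in 15 of the 19, with a median of -0.34. Ncoa2, a coactivator of steroid receptors, fell by 0.61 on the log2 scale (edgeR adjusted p = 0.0215), with 21.8, 27.3 and 29.6 CPM in labelled KO, against 45.8, 42.1, 41.5 and 30.6 CPM in WT. The adjusted p was 0.157 with library size alone and 0.0601, 0.0607, 0.053 and 0.0819 without WT 1, WT 2, WT 3 and KO 1. Ncoa6 fell by 0.50 (adjusted p = 0.0216), with 0.254 for library size alone and 0.0544, 0.0551, 0.0823 and 0.0714 without WT 2, WT 3, KO 1 and KO 3. Ppargc1a, for the metabolic coactivator PGC-1 alpha, had a log2 fold change of -1.58 and was not called (adjusted p = 0.143). Over all the co-regulators, targets, enzymes and clock and immediate early genes listed beside the receptors, leaving out the receptors themselves, 14 of 119 tested genes (11.8%) were higher and 13 (10.9%) lower, beside 8.73% and 5.25% of all tested genes.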

How the data were processed

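RNA was sequenced from islets of separate mice, 3 labelled KO and 4 WT, grouped and numbered by their labels. The deposited table held whole-number counts per gene with mm10 coordinates, made by the authors with STAR 2.5 and featureCounts 1.5.0-p1 among the tools named per the submitters' processing notes. The sources used here do not give the strand option or the annotation. The ChIP-seq peaks were deposited as 200 bp intervals, and Bowtie 1.2, HOMER 4.9.1 and bedtools 2.24.0 are among the tools named per the submitters' processing notes. The input library was not analysed here.

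Genes were filtered with filterByExpr, scaled with TMM factors and compared in R 4.3.3 by the robust quasi-likelihood F test of edgeR 4.0.16, with Benjamini-Hochberg adjustment over all 14529 tested genes and a threshold of 0.05. CPM are TMM-scaled counts per 1e6. SEs were derived as the size of the log2 fold change over the root of its F value. No exon lengths were used, so levels were not compared between genes. Counting intervals cover counting error only. Over pairs of libraries of a group no copies were found. On simulated counts, over 14344 genes, labelled KO against WT, the fit found 18.2% of simulated 1.5-fold changes, 67.2% of 2-fold changes and 86.2% of 4-fold changes, with 8.13% of its 123 calls false.

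Distances ran from the 5′ end of the gene, as spanned in the count table, to the peak midpoint. Promoter sequences are RefSeq's, on GRCm38.p6.

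The receptors and all lists were chosen with earlier results of these data known. All 47 receptors are accounted for, and those called or with separate groups are given with their values in each library. Some of the others, also some with a peak nearby, are given by fold change and adjusted p or by counts alone. From each companion list up to 4 called genes with the smallest p were eligible. Other genes named as examples were chosen after their values were seen. Of the called retinoic acid genes, 1 is not reported here. Same-numbered libraries deviated together (r = 0.173, 0.117 and 0.117 for numbers 1 to 3). By a rule that every such r is over 0.1, the numbers were taken as pairs in the replicate block. The main fit, which gave the calls, had no such block. KO 3 had r = 0.157 with WT 4, more than with WT 3, and the labels do not say what the numbers mean.

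Alternatives were other scaling (RLE, library size alone, TMM without the 10 most abundant genes), no filter on counts or a minimum of 1 CPM in 3 libraries, limma-voom 3.58.1, DESeq2 1.42.0, a replicate block, leaving out each library, covariates for acinar markers or Xist, a threshold of 0.01, testing with glmTreat for changes beyond 1.5-fold, and other peak windows.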

Additional observations from a re-analysis of the deposited data

Results flagged for a closer look

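Of 61 genes checked for a library far from the rest of the WT group, 2 were found, and chance gives about 1 in 20. For Dio1, WT 2 was low, with 84.3 CPM against 102 to 103 CPM in the other WT libraries, a gap of 0.941 of the range of the group. All labelled KO values (67.8, 43.9 and 61.1 CPM) were still lower. For Pdk4, WT 4 was high, with 37.4 CPM against 27.3 to 28.1 CPM in the other WT libraries, a gap of 0.924 of the range, and all labelled KO values (11.7, 14.7 and 16.1 CPM) lay below all of WT.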

How the results depend on the processing

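The calls of Esr1, Nr4a2 and Vdr held in all 20 alternatives, and Rara in 19, whereas Ppara, Pparg, Esrrg and Rora each lost theirs in 5 to 10. Against 4 higher and 4 lower receptors, 2 higher and 2 lower were called with the acinar marker covariate, at an adjusted p under 0.01, in the glmTreat test and in the 4 libraries with Xist reads, a choice made after seeing the data. In those 4 libraries the 2 lower genes were Vdr and Nr1d1, which the main fit did not call, and the call of Rara was lost. Leaving out each library in turn gave 2 to 4 higher, with 2 without KO 2, and 2 to 5 lower, with 2 without WT 3. For the companion genes it gave 13 to 17 higher and 11 to 14 lower, and 8 were lower with library size alone and 21 in DESeq2, against 13.

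With the replicate block, 3 receptors were higher and 4 lower. It ended the calls of Ppara, Rora and Glis3, added Nr1d1 and changed no other call among the receptors. WT 4, which has no partner, adds nothing to the difference there.

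Library size alone called 1854 genes higher and 324 lower over all tested genes, against 1268 and 763, and shifted the median of all genes to 0.18. Under it Rxrb (0.0633), Nr1h2 (0.0229) and Nr1h4 (0.0733) changed sign. Nr2c1 changed sign without WT 1 (-0.00592, with 0.0691 as the highest value on leaving out a library) and with the acinar covariate (-0.0105). Nr4a1 did so without WT 3 (-0.108), WT 4 (-0.109), KO 1 (-0.0347) and KO 3 (-0.0558), with 0.692 as the highest value without a library, and in the libraries with Xist reads (-0.753). None of these genes was called, and the cause was not tested.

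Among all 47 receptors, peak counts were 27 to 41 across the windows. The few replicates, the absence of a Cre control and the single ChIP library limit all comparisons, and counts under about 3 per group cannot separate low from absent.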
